A study of Homo sapiens with 18 samples.

Results

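The 10 glycolysis enzymes HK2, GPI, PFKL, ALDOA, TPI1, PGK1, PGAM1, ENO1, PKM and LDHA were examined for their RNA level and for SP1, H3K4me1 and ERα peaks at their promoters. They were found by matching the RefSeq identifiers of the expression table to these symbols. Each symbol matched 1 row, so the members were 10 of 23500 rows, and all 10 passed the filter on low values that left 11134 genes for testing. The cells were ZR751, an established ER+ breast cancer line, grown in medium with serum and insulin. ZR751shMLL3 cells carried a lentiviral short hairpin RNA against MLL3 (KMT2C), an H3K4 methyltransferase of enhancers. ZR751shLucif cells carried a control hairpin against luciferase. Both were stably transduced, sorted for GFP and used in early passages. Each assay had 2 biological replicates of each cell line, which gave 4 RNA-seq libraries and 12 ChIP-seq peak lists. A single hairpin was used against each target, and by the study's list of libraries the ZR751shMLL3 RNA came from later passages than the ZR751shLucif RNA. Knockdown, the hairpin itself and passage therefore cannot be told apart.

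Glycolysis turns glucose into pyruvate in the cytosol. Hexokinase traps glucose as glucose 6-phosphate, which is then rearranged, phosphorylated again by phosphofructokinase and cleaved by aldolase. The later enzymes recover energy as ATP and NADH, and lactate dehydrogenase turns pyruvate into lactate so that NADH can be reoxidised. Tumour cells often run this route at a high rate even in oxygen, and many of its genes are known targets of HIF1, MYC and SP1.

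The expression values are FPKM, fragments scaled to transcript length and to the mapped fragments of the library, as the authors deposited them. They were compared as log2(FPKM + 0.5), on which a fold change understates the difference of weakly expressed genes. KMT2C, the targeted gene, stood at 2.34 and 6.77 FPKM in ZR751shLucif replicates 1 and 2 against 1.07 and 2.69 FPKM in ZR751shMLL3 replicates 1 and 2. The log2 fold change was −1.02 ± 0.54 (SE), with an adjusted p of 0.629 by limma. The cell lines overlapped, because the library labelled ZR751shLucif replicate 1 lay below ZR751shMLL3 replicate 2. That library also stood apart from the rest over all genes tested: its log2 values correlated with those of the other libraries at 0.900 to 0.907, against 0.947 to 0.969 among the other libraries. Its FPKM summed to 662334 over the rows matched to 1 symbol, against 463269 to 502022 in the others. All 10 luminal markers in the list used, among them ESR1 and GATA3, were above 1 FPKM in every library, and their sum was 14835 and 7857 FPKM in ZR751shLucif and 13132 and 10752 FPKM in ZR751shMLL3. The summed level of the 6 basal or mesenchymal markers was at most 0.909 FPKM in any library, and that of the 2 endothelial markers at most 0.282 FPKM. The 3 leukocyte markers summed to 9.72 and 8.37 FPKM in ZR751shLucif and 13.9 and 7.68 FPKM in ZR751shMLL3, nearly all from CD68, a lysosomal protein, while PTPRC and CD3E were at most 0.0318 FPKM. The 2 fibroblast markers in the table summed to 13.1 to 17.8 FPKM, nearly all from COL1A1, and PDGFRB was at most 0.0621 FPKM. Their part in the results was not tested.

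All 10 enzymes had a higher mean log2 level in ZR751shMLL3 than in ZR751shLucif as deposited (relative to GAPDH, TPI1, LDHA and PKM did not), but none passed the test. Their median log2 fold change was 0.75, whereas the median of all genes tested was −0.10. The fold changes ran from 1.08-fold for PKM to 2.25-fold for GPI. By limma with Benjamini-Hochberg adjustment over 11134 genes, 0 of the 10 reached an adjusted p of 0.05, and their adjusted p ran from 0.605 to 0.932. Over all genes tested, 0% were called higher and 0.00898% were called lower, which was 1 gene, the small nucleolar RNA SNORD104. At an unadjusted p below 0.05, PFKL and ALDOA were higher, that is 2 of 10, against 3.67% of all genes. Both ZR751shMLL3 libraries lay above both ZR751shLucif libraries for 5 of the 10 enzymes, namely GPI, PFKL, ALDOA, PGAM1 and ENO1, against 17.6% of all genes. The reverse held for 0 of the 10, against 25.3% of all genes. A log2 fold change above 0 was found for 40.9% of all genes.

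**Figure D1:**
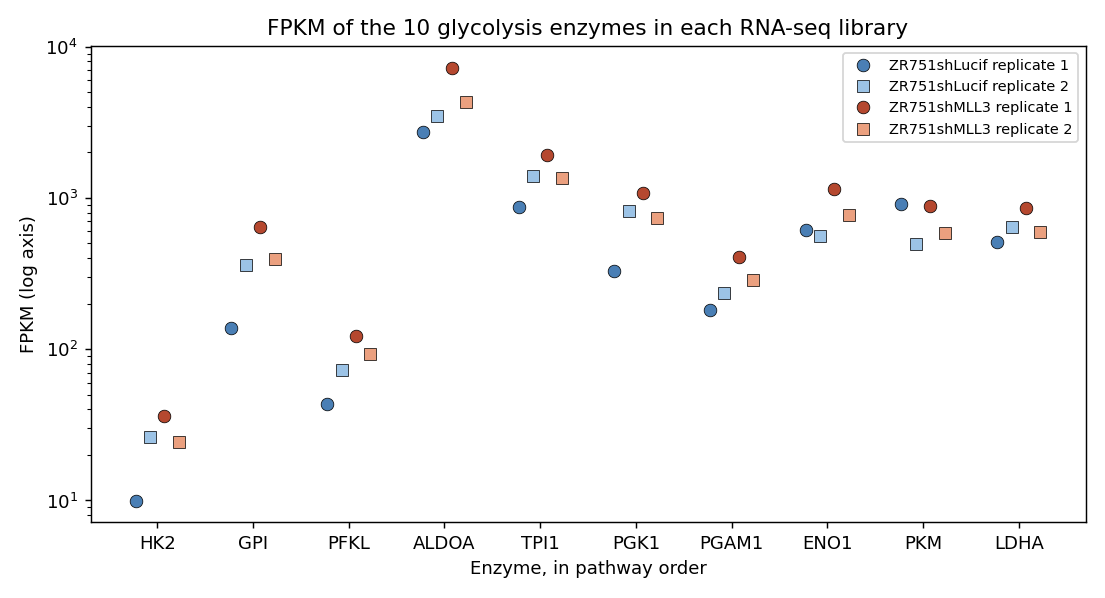
FPKM on a log axis for each enzyme in pathway order, with 1 point for each of the 4 RNA-seq libraries. ZR751shMLL3 replicate 1 is the highest library for 9 of the 10 enzymes and ZR751shLucif replicate 1 the lowest for 8 of the 10.

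Among the enzymes that prepare glucose for cleavage, HK2 (hg19 chr2:75061254-75120486, plus strand), the inducible hexokinase, had the lowest level of the 10 in every library. It measured 9.99 and 26.3 FPKM in ZR751shLucif and 36.3 and 24.5 FPKM in ZR751shMLL3. The cell lines overlapped, and the lowest value was that of ZR751shLucif replicate 1. The log2 fold change was 0.86 ± 0.49 (SE).

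GPI (chr19:34850385-34893318, plus strand), which converts glucose 6-phosphate into fructose 6-phosphate, showed the largest difference of the 10. Its level was 139 and 361 FPKM in ZR751shLucif and 646 and 394 FPKM in ZR751shMLL3. The means were 250 ± 157 and 520 ± 178 FPKM (SD, n = 2 each), and the log2 fold change was 1.17 ± 0.51 (SE) with an adjusted p of 0.620 by limma. The cell lines did not overlap, but ZR751shLucif replicate 2 and ZR751shMLL3 replicate 2 lay close together.

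PFKL (chr21:45719934-45747259, plus strand) encodes the liver-type subunit of phosphofructokinase, the committed step of the pathway. It stood at 43.6 and 73.0 FPKM in ZR751shLucif, against 122 and 92.3 FPKM in ZR751shMLL3. The cell lines did not overlap. Its log2 fold change of 0.90 ± 0.35 (SE) had the smallest adjusted p of the 10, 0.605 by limma.

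ALDOA (chr16:30075485-30081778, plus strand), the aldolase that cleaves fructose 1,6-bisphosphate, was the most abundant of the 10 in every library. It measured 2712 and 3496 FPKM in ZR751shLucif and 7264 and 4288 FPKM in ZR751shMLL3, which did not overlap. The log2 fold change was 0.86 ± 0.35 (SE). ALDOA alone made up 43.0% and 43.2% of the summed FPKM of the 10 enzymes in ZR751shLucif and 50.5% and 47.0% in ZR751shMLL3.

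TPI1 (chr12:6976283-6980112, plus strand) interconverts the triose phosphates that aldolase releases. Its values were 865 and 1403 FPKM in ZR751shLucif and 1934 and 1351 FPKM in ZR751shMLL3. ZR751shLucif replicate 2 exceeded ZR751shMLL3 replicate 2, so the cell lines overlapped, and the log2 fold change was 0.55 ± 0.36 (SE).

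Among the enzymes that recover energy, PGK1 (chrX:77166236-77384792, plus strand), the first of the enzymes that make ATP, stood at 331 and 813 FPKM in ZR751shLucif, against 1074 and 736 FPKM in ZR751shMLL3. The overlap was again between the second replicates, and the low value was again ZR751shLucif replicate 1. The log2 fold change was 0.78 ± 0.47 (SE).

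PGAM1 (chr10:99185948-99193201, plus strand), which moves the phosphate of 3-phosphoglycerate, measured 181 and 236 FPKM in ZR751shLucif and 406 and 287 FPKM in ZR751shMLL3. ENO1 (chr1:8921059-8939249, minus strand), the enolase that forms phosphoenolpyruvate, measured 610 and 559 FPKM in ZR751shLucif and 1148 and 770 FPKM in ZR751shMLL3. Neither overlapped between the cell lines. The log2 fold changes were 0.72 ± 0.31 and 0.69 ± 0.31 (SE). ENO1 was one of only 2 enzymes, with PKM, for which ZR751shLucif replicate 1 was not the lowest library.

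PKM (chr15:72491370-72524160, minus strand) and LDHA (chr11:18416107-18429972, plus strand), which make pyruvate and lactate, showed the smallest differences. PKM stood at 905 and 493 FPKM in ZR751shLucif, against 890 and 590 FPKM in ZR751shMLL3. The 2 replicates of each line were further apart than the lines were, and the log2 fold change was 0.12 ± 0.39 (SE). LDHA stood at 507 and 638 FPKM in ZR751shLucif, against 851 and 598 FPKM in ZR751shMLL3, with overlap and a log2 fold change of 0.33 ± 0.31 (SE). The PKM row pooled 7 RefSeq transcripts and the LDHA row 6, so splice forms could not be told apart.

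FPKM are per transcript length, so levels can be ordered between enzymes. ALDOA came first in all 4 libraries and GPI, PGAM1, PFKL and HK2 filled the last 4 places in each. The middle of the order moved. PKM came right after ALDOA in ZR751shLucif replicate 1, but behind TPI1, PGK1 and ENO1 in the other 3 libraries. The most abundant member exceeded the least abundant 272-fold and 133-fold in ZR751shLucif and 200-fold and 175-fold in ZR751shMLL3. Summed over the 10 enzymes, the level was 6303 and 8100 FPKM in ZR751shLucif and 14373 and 9131 FPKM in ZR751shMLL3. As a share of the FPKM of all rows matched to 1 symbol this was 0.952% and 1.75% in ZR751shLucif and 2.86% and 1.87% in ZR751shMLL3. The lines did not overlap in the sum or in the share, but both values of ZR751shLucif replicate 2 lay closer to ZR751shMLL3 replicate 2 than to ZR751shLucif replicate 1.

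The size of the difference depended on single libraries. Without the library labelled ZR751shLucif replicate 1, the median log2 fold change of the 10 enzymes was 0.51, all 10 values stayed above 0 and 0 were called, in a fit that assumes the lone control varies like the other groups. GPI then had a log2 fold change of 0.48, HK2 of 0.18, PGK1 of 0.13 and TPI1 of 0.20. ENO1 kept 0.75, ALDOA 0.67 and PKM had 0.55. Without ZR751shLucif replicate 2 the median was 0.98 and limma called 4 of the 10, namely GPI, HK2, PFKL and PGK1, with adjusted p of 0.0282, 0.0325, 0.0363 and 0.0359, while PKM turned to −0.32. That fit called 1269 of the 11134 genes, and it too rests on a lone control. Over all alternatives the adjusted p of these 4 enzymes ran from those values to 1. Without ZR751shMLL3 replicate 1 the median was 0.48, and without ZR751shMLL3 replicate 2 it was 1.01, with 0 called in each.

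**Figure D2:**
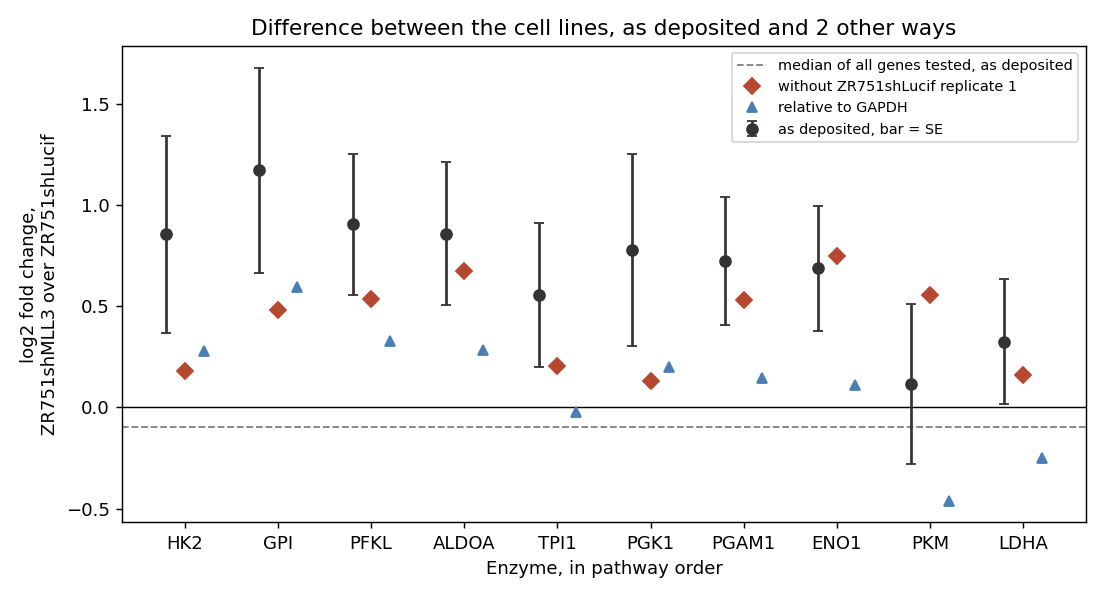
log2 fold change of ZR751shMLL3 over ZR751shLucif for each enzyme as deposited (circles, bars are SE), without ZR751shLucif replicate 1 (diamonds) and relative to GAPDH (triangles). The circles lie between 0.12 and 1.17, and the triangles between −0.46 and 0.59.

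GAPDH, the enzyme between TPI1 and PGK1 in the pathway, is not among the 10 and served as the reference gene of the study's qPCR. It measured 9916 and 9758 FPKM in ZR751shLucif and 17641 and 12194 FPKM in ZR751shMLL3, without overlap. Its log2 fold change was 0.58 ± 0.30 (SE), with an adjusted p of 0.629 by limma. When the log2 value of GAPDH was subtracted in each library, an alternative added after seeing the data, the median of the 10 enzymes dropped to 0.17 and that of all genes tested to −0.67. The distance between both medians is 0.85 on either scale, since the subtraction shifts every gene by the same amount. On that scale GPI had 0.59, PFKL 0.33, ALDOA 0.28 and HK2 0.28, whereas TPI1 had −0.02, LDHA −0.25 and PKM −0.46. ENO1 alone lay higher in both ZR751shMLL3 libraries, at 0.0651 and 0.0632 of the GAPDH level against 0.0615 and 0.0573, as did 1.64% of all genes on that scale. LDHA and PKM lay lower in both, as did 61.2% of all genes. The summed FPKM of the 10 enzymes was 0.636 and 0.830 times that of GAPDH in ZR751shLucif and 0.815 and 0.749 times in ZR751shMLL3, which overlapped.

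Transcript composition moved with the differences. Across the genes tested, the log2 fold change ranked with transcript GC content (Spearman's rho 0.533 across genes, a description over genes that share libraries and are not independent). The transcripts of the 10 enzymes had 41.8% GC (LDHA) to 63.4% GC (PFKL), against a median of 48.9% over the genes tested with a known transcript. With the GC trend of each library removed, the median log2 fold change of the 10 was 0.64, and both ZR751shMLL3 libraries lay above both controls for 3 of the 10, in place of 5, and for 18.6% of all genes on that scale. The GC-rich PFKL and ALDOA came to 0.63 and 0.64, and the GC-poor PGK1 and LDHA to 1.05 and 0.62. PKM came to 0.01. Of the 37 annotated pseudogenes of the 10 enzymes, 13 belong to PGAM1 and 6 to LDHA, but only 3 had a row, the highest at 0.472 FPKM. How reads shared with such copies were placed was not tested.

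Isozymes of a step can be compared within a library, where scaling cancels. HK2 made up 7.25% and 25.8% of the summed FPKM of the hexokinases in ZR751shLucif and 30.4% and 21.5% in ZR751shMLL3. The remainder was nearly all HK1, the widely expressed hexokinase. The difference of 9.43 percentage points did not exceed the spread between replicates (exact permutation test, two-sided, p = 0.667, n = 2 per line). PFKL made up 25.1% and 34.8% of the phosphofructokinases in ZR751shLucif and 36.6% and 35.8% in ZR751shMLL3, without overlap. Its exact permutation p of 0.333 is the smallest that 2 against 2 libraries allow, so no isozyme share could pass 0.05. ALDOA made up 99.98% and 99.91% of the aldolases in ZR751shLucif and 99.82% and 99.76% in ZR751shMLL3. Its share was 0.156 percentage points lower in ZR751shMLL3, again without overlap (exact permutation p = 0.333), and ALDOC, the brain-type aldolase, stood at 0.531 and 3.21 FPKM in ZR751shLucif, against 13.3 and 10.4 FPKM in ZR751shMLL3. ENO1 made up 79.9% to 91.6% of the enolases, with ENO2 as the other main form. PGAM1, PKM and LDHA each made up over 98% of their families in every library. Adjusted over the 7 families, each exact permutation p was 1.

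The neighbouring gene lists put the enzymes in context. Of 8 measured further glycolytic isozymes and GAPDH, 6 had a log2 fold change above 0, against 40.9% of all genes, and the median was 0.69. Both ZR751shMLL3 libraries lay above both controls for 5, against 17.6% of all genes. ALDOC had the largest log2 fold change, 2.65 ± 0.59 (SE, limma adjusted p = 0.418), and PFKM, the muscle-type phosphofructokinase, the lowest, −0.40 ± 0.37. With the replicate block ALDOC passed, with a limma adjusted p of 0.0440, and without the library labelled ZR751shLucif replicate 1 its log2 fold change was 1.72. Another 10 genes of that list did not pass the filter on low values.

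Of 11 transporters of glucose and lactate, 6 passed the filter and had a median of 0.22. SLC16A3, the lactate exporter MCT4, led with 99.0 and 124 FPKM in ZR751shLucif and 282 and 205 FPKM in ZR751shMLL3. The cell lines did not overlap, and the log2 fold change was 1.12 ± 0.30 (SE, limma adjusted p = 0.495). SLC2A8 was lowest at 0.15. Among 9 measured regulators of flux, with a median of 0.25, PFKFB4, which makes the activator of phosphofructokinase, had 1.04 ± 0.56 with overlap between the lines. Without the library labelled ZR751shLucif replicate 1, which was lowest for 7 of these 9 genes, their median was −0.01 and PFKFB4 had 0.26. PDP1, a phosphatase of pyruvate dehydrogenase, had −0.41.

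The routes that take pyruvate into mitochondria or glucose 6-phosphate into pentoses had medians below 0. The 7 genes of pyruvate dehydrogenase and the mitochondrial pyruvate carrier had a median of −0.38, with 5 of 7 below 0, and ran from −0.59 (DLD) to 0.17 (MPC2). The 7 genes of the pentose phosphate pathway had a median of −0.28, with 6 of 7 below 0. Of all 11134 genes tested, 6577 lay below 0, with a median of −0.10. PGD, its second dehydrogenase, stood at 296 and 132 FPKM in ZR751shLucif, against 122 and 103 FPKM in ZR751shMLL3, a log2 fold change of −0.82 ± 0.42 (SE), and PGLS was highest at 0.25. Both medians were near 0 without ZR751shLucif replicate 1, at −0.12 and 0.15. In gluconeogenesis, with 4 genes measured and a median of 0.12, PC, which makes oxaloacetate from pyruvate, had 0.97 ± 0.35 and FBP1 −0.27. Among 8 genes of glycogen and UDP-glucose, with a median of 0.21, PYGL, a glycogen phosphorylase, had 0.91 ± 0.29 and UGP2 −0.52. In each of these lists 0 genes passed the adjusted p of 0.05 by limma. Without ZR751shLucif replicate 2, when 1269 genes were called, 2 genes were called among the further isozymes, 2 in flux control, 2 in pyruvate dehydrogenase and carrier, 1 each in transport, pentose phosphate and glycogen, and 0 in gluconeogenesis. At an unadjusted p below 0.05, 2 further isozymes (ALDOC and PGAM2) were higher, as was 1 gene each in transport (SLC16A3), gluconeogenesis (PC) and glycogen (PYGL), and 1 gene of the pentose phosphate pathway (RPE) was lower. PGAM2 and RPE fell outside the rule for named genes and were named after their values were seen.

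**Figure D3:**
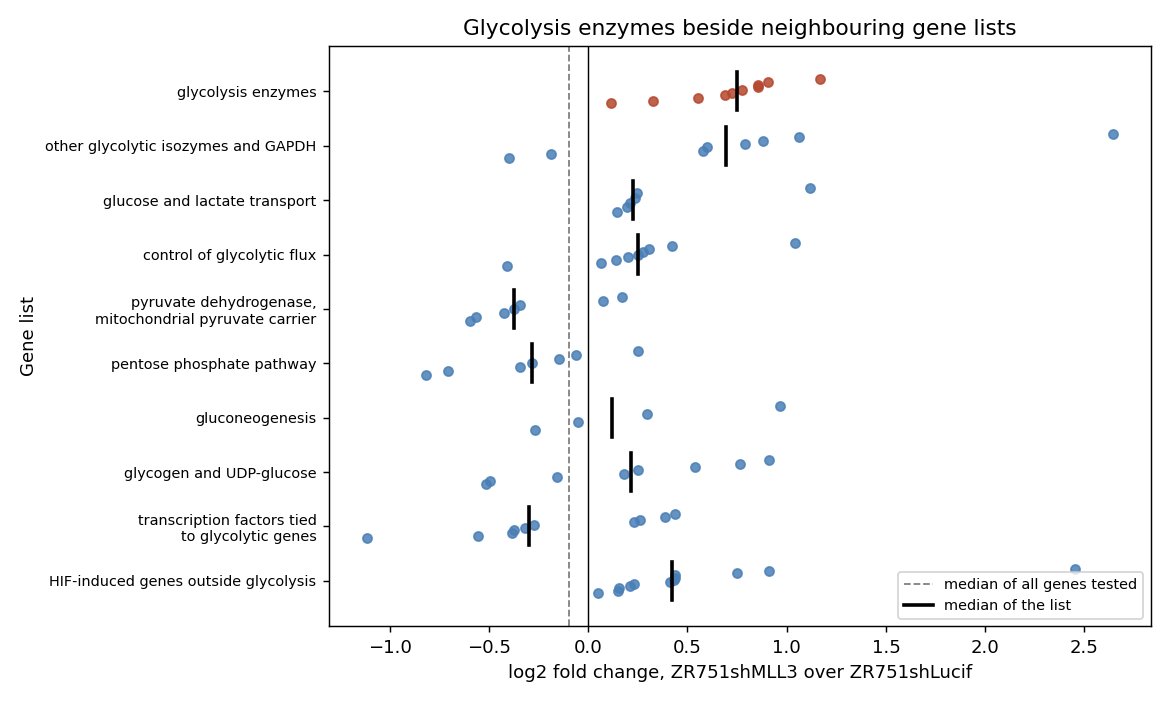
log2 fold change of ZR751shMLL3 over ZR751shLucif for each gene that passed the filter, by list, with the list's median (black bar), the value 0 and the median of all genes tested (dashed). As deposited, all 10 glycolysis enzymes lie right of 0 (relative to GAPDH, TPI1, LDHA and PKM do not), with a median of 0.75, beside −0.38 for pyruvate dehydrogenase and −0.28 for the pentose phosphate pathway.

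HIF1A, the oxygen-regulated activator of many glycolytic genes, stood at 94.6 and 48.2 FPKM in ZR751shLucif, against 29.3 and 32.5 FPKM in ZR751shMLL3. It was lower in both ZR751shMLL3 libraries, with a log2 fold change of −1.12 ± 0.38 (SE) and an adjusted p of 0.595 by limma. The RNA level of HIF1A does not give its protein level, which is set mainly by degradation. The 12 HIF-induced genes outside glycolysis all had values above 0, against 40.9% of all genes, with a median of 0.42, and 0 were called (1, NDRG1, at an unadjusted p below 0.05). NDRG1 had the largest, 7.26 and 37.9 FPKM in ZR751shLucif and 94.3 and 93.5 FPKM in ZR751shMLL3, and VEGFA the smallest, 0.05. The log2 fold change of NDRG1 was 2.45 ± 0.70 (SE), 1.30 without ZR751shLucif replicate 1 and 3.60 without ZR751shLucif replicate 2. The fit without ZR751shLucif replicate 2 rests on a lone control and called more genes over the whole table as well. In the latter fit 6 of the 12 genes were called, NDRG1 with a limma adjusted p of 0.0011. In 11 of these 12 genes ZR751shLucif replicate 1 was the lowest library, against 20.3% of all genes tested, as it was in 8 of the 10 glycolysis enzymes. Without that library the list's median was −0.30. Their part in the values of the glycolysis enzymes was not tested. Of the 10 transcription factors listed, 4 had values above 0, against 40.9% of all genes, and the median was −0.30, with MLXIPL, a glucose-responsive factor, highest at 0.44. Their median was 0.02 without ZR751shLucif replicate 1. None passed the adjusted p by limma, and HIF1A alone had an unadjusted p below 0.05. Without ZR751shLucif replicate 2, 2 of the 10 were called, HIF1A among them with a limma adjusted p of 0.0178. SP1, the factor of the ChIP-seq, measured 16.7 and 23.7 FPKM in ZR751shLucif and 13.7 and 18.3 FPKM in ZR751shMLL3, with overlap and a log2 fold change of −0.32 ± 0.32 (SE).

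SP1 is a zinc finger factor that binds GC-rich promoters. The study's SP1 peaks were called by the authors in each library separately against an input, and their signal has its own scale in each list. Peaks were therefore compared by rank within the list and by the authors' false discovery rate (FDR), within 1000 bp of any annotated start site. At an FDR of 0.01, a peak lay at 0 of the 10 promoters in both ZR751shLucif lists, at 6 in ZR751shMLL3 replicate 1 and at 7 in ZR751shMLL3 replicate 2. The shares of 10595 gene promoters were 0%, 0%, 46.0% and 50.2%. With 1 start site per gene, the counts were 0 in both ZR751shLucif lists, 2 (ENO1 and PKM) in ZR751shMLL3 replicate 1 and 6 in ZR751shMLL3 replicate 2. In ZR751shMLL3 replicate 1 the best-ranked ALDOA and TPI1 peaks had summits 4500 bp and 1407 bp downstream of the main start site. Those of PGK1 and GPI lay more than 1000 bp upstream of it. Neither ZR751shLucif list held a single peak at that FDR, its best −log10 FDR being 1.54 and 1.21, whereas 204178 of the 209985 peaks of ZR751shMLL3 replicate 1 met it. The threshold thus separated the lists as a whole, and the exact permutation p of 0.333 is the smallest that 2 against 2 allow.

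Ranks gave another picture. Among the 5000 highest-ranked peaks of each list, the number of enzyme promoters with a peak was 0 and 1 in ZR751shLucif and 1 and 7 in ZR751shMLL3 (exact permutation test, two-sided, p = 0.667). The shares of all promoters were 3.90%, 4.11%, 4.64% and 34.3%. The 7 of 10 therefore came from 1 library, ZR751shMLL3 replicate 2, in which promoters in general ranked high. Without it, the difference between the lines was 0.50 promoters, in place of 3.50. Only the ENO1 promoter was in the top 5000 of more than 1 list.

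In ZR751shMLL3 replicate 2 the PKM promoter held the peak of rank 95, ENO1 that of rank 185 and ALDOA that of rank 294. Only 0.812%, 1.61% and 2.68% of the promoters of genes tested held a better one. LDHA followed at 1640, PGK1 at 2387, GPI at 4122 and PFKL at 4725. PGAM1, HK2 and TPI1 had only peaks of rank 23782, 39638 and 75896, behind 59.1% to 73.2% of promoters. The GAPDH promoter held rank 200. In the other 3 libraries, ENO1 ranked 2923 in ZR751shMLL3 replicate 1 and 208 in ZR751shLucif replicate 2. The other 9 enzymes had no peak better than rank 29908 there, which was that of GPI in ZR751shLucif replicate 1. At the ENO1 promoter the peak summits lay 114 bp, 32 bp and 72 bp upstream of the main start site in ZR751shLucif replicate 2, ZR751shMLL3 replicate 1 and ZR751shMLL3 replicate 2.

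**Figure D4:**
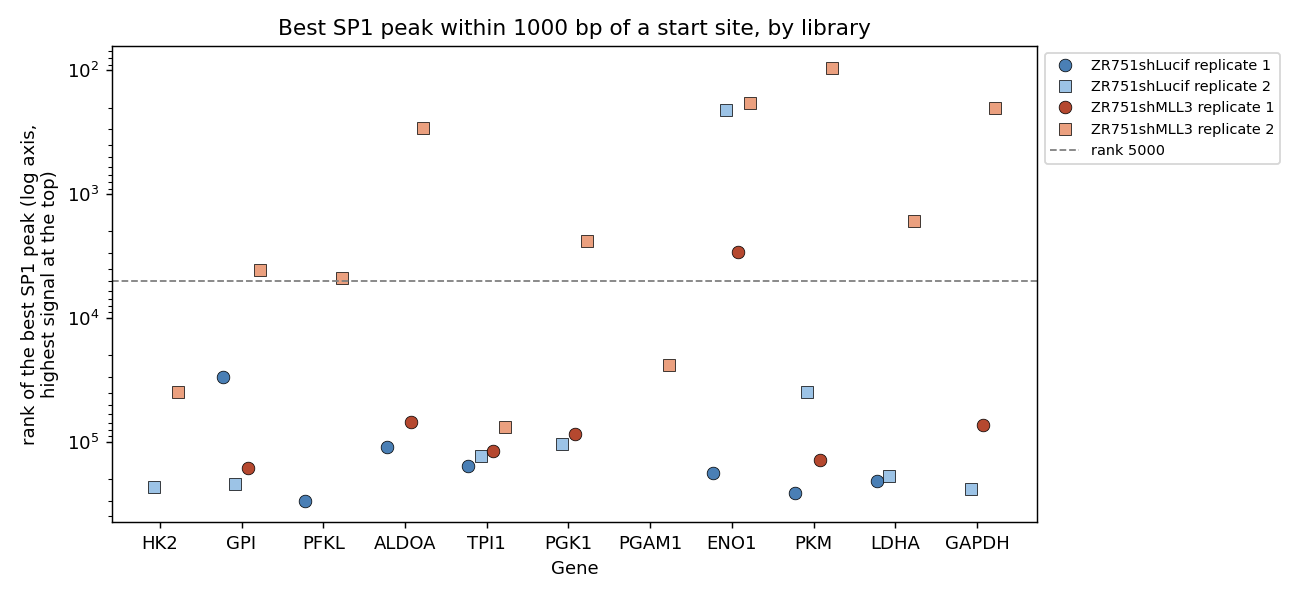
Rank of the best SP1 peak within 1000 bp of a start site for each enzyme and GAPDH in the 4 SP1 lists, on a log axis with the highest signal at the top. A missing point means that no peak was listed. Of the points above the line at rank 5000, all but 2 come from ZR751shMLL3 replicate 2, and those 2 are at ENO1.

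The promoter sequences are shown for 4 enzymes whose SP1 peak in ZR751shMLL3 replicate 2 ranked within 5000 near the main start site, and for 2 whose peak ranked lower. They were read from GRCh37 (hg19) on the strand of the gene, 5′ to 3′, within 200 bases before the main GENCODE start site and outside annotated untranslated and coding stretches. Capitals mark the GC box GGGCGG or its reverse complement CCGCCC, the core of the known SP1 site. ENO1 (chr1:8938780-8938870, minus strand) is the stretch with a high SP1 rank in 3 lists and ALDOA (chr16:30076881-30077080, plus strand) that of the most abundant enzyme. PGK1 (chrX:77359545-77359744) and PFKL (chr21:45719736-45719933), both on the plus strand, complete the first set. HK2 (chr2:75061054-75061253) and PGAM1 (chr10:99185834-99185947), both on the plus strand, form the second.
ENO1: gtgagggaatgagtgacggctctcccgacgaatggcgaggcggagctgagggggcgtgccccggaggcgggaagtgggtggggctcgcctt
ALDOA: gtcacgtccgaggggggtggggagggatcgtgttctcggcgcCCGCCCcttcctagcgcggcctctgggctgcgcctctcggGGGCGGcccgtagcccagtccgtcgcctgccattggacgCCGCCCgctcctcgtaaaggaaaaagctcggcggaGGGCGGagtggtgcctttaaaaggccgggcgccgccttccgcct
PGK1: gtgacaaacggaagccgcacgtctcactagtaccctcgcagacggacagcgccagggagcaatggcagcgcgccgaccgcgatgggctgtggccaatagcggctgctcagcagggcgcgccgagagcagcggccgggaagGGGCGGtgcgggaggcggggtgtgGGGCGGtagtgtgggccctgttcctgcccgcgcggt
PFKL: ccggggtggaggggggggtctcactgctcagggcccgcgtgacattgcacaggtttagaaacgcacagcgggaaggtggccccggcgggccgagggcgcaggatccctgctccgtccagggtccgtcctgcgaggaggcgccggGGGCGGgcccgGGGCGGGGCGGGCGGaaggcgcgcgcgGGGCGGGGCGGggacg
HK2: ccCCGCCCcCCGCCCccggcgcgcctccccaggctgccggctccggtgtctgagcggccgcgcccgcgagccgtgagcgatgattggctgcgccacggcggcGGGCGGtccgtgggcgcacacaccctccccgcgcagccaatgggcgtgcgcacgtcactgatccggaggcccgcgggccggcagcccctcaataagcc
PGAM1: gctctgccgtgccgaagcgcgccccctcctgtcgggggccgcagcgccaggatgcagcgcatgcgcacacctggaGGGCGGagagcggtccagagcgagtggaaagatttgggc

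In the full 200 bases before the main start site, the GC box occurred on either strand at 9 of the 10 enzymes, against 70.6% of 10594 promoters of the same length. Overlapping matches were counted separately. PFKL held 6, TPI1 5, ALDOA 4, HK2, PGAM1 and PKM 3 each, PGK1 2, GPI and ENO1 1 each and LDHA 0. The count did not follow the SP1 rank in ZR751shMLL3 replicate 2: ENO1, at rank 185, had 1, outside the stretch printed, and HK2, at rank 39638, had 3. The peaks behind these ranks need not lie in the 200 bases. For HK2, GPI, TPI1 and LDHA the peak summit lay more than 1000 bp from the main start site. The letters ACGTG or CACGT, part of the known site of HIF1, occurred at 5 of the 10, with 5 matches at LDHA and 1 each at HK2, ALDOA, PGK1 and PGAM1, against 20.5% of promoters. These matches describe the letters only.

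H3K4me1, a mark of enhancers and of the flanks of active promoters, was called at an FDR of 0.01 at 6 and 7 of the 10 promoters in ZR751shLucif and at 2 and 5 in ZR751shMLL3. The shares of all promoters were 50.2%, 57.3%, 12.7% and 35.7%, likewise lower in both ZR751shMLL3 libraries. The difference of 3.00 promoters had an exact permutation p of 0.333. TPI1 alone was called in all 4 libraries, but its best-ranked peaks did not share 1 position. Their summits lay 1726 bp and 1920 bp downstream of the main start site in ZR751shLucif and 3749 bp and 1430 bp in ZR751shMLL3. ALDOA and HK2 were called in both ZR751shLucif libraries and in neither ZR751shMLL3 library, and GPI in ZR751shMLL3 replicate 1 only. Among the called enzymes, only LDHA had a best-ranked summit within 1000 bp of the main start site. This held in ZR751shLucif replicate 1 and ZR751shMLL3 replicate 2. With 1 start site per gene, the counts were 3 and 4 in ZR751shLucif and 0 and 3 in ZR751shMLL3. TPI1 was then called in ZR751shLucif replicate 2 only. By rank, no enzyme promoter was among the 5000 highest peaks of any of these lists.

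ERα, the oestrogen receptor, was called at an FDR of 0.01 at 2 promoters, PGAM1 and PKM, in ZR751shLucif replicate 1 and at 0 in the other 3 libraries. The shares of all promoters were 24.7% and 2.10% in ZR751shLucif and 0.415% and 7.73% in ZR751shMLL3. The best rank of an ERα peak at any of the 10 promoters was 42152, at PGAM1 in ZR751shLucif replicate 1. No ERα peak was listed within 1000 bp of a start site of HK2, GPI or ENO1 in any library.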

How the data were processed

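RNA-seq libraries were stranded and made from total RNA. Per the labels and the study's methods, the authors aligned reads to hg19 with TopHat2 2.0.13 and made FPKM with Cuffnorm 2.2.1. The deposited values are FPKM in 4 libraries, with no counts, so the depth behind a gene is unknown. For ChIP-seq the authors aligned reads with BWA 0.7.5a-r405 and called peaks per library with SPP against an input. The deposited lists hold a signal and a −log10 FDR for each peak, with up to 300000 peaks kept per list.

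RefSeq identifiers were matched to symbols, and 1 symbol was found for 22447 of 23500 rows. Values were taken as log2(FPKM + 0.5), and 11134 genes with a mean above 1 on that scale were tested with limma 3.58.1 (R 4.3.3) and adjusted by Benjamini-Hochberg. Isozyme shares and promoter counts were compared by exact permutation tests over libraries, two-sided, in which 2 against 2 libraries cannot give a p below 0.333. Where nothing but the label separates replicates, p-values measure the spread between these samples. A promoter was 1000 bp on each side of any GENCODE start site of hg19, and an overlap of 1 bp with a peak was enough (bedtools 2.31.1). The limma and reproducibility steps were first tested on simulated data. The changes simulated for limma were larger than those of the 10 enzymes, so that run does not cover differences of their size. The genes named are the 10 enzymes, GAPDH, KMT2C, SP1, the isozymes of each family and, in each other list, the genes with the highest and lowest log2 fold change. The members and lists were chosen with earlier results of these data known. Alternatives changed the pseudocount, filter, scaling, GC and length trends, a surrogate variable, the replicate block, single libraries, the FDR, rank, window and start sites, and reproducibility between replicates. Values relative to GAPDH and top-ranked SP1 peaks without each library were added after seeing the data. The study's own test, a linear model per gene with ANOVA, first removed surrogate variables. It reported many genes in both directions at an FDR q-value below 0.05. Here that removal was an alternative only. Read-level data were not analysed here.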

Additional observations from a re-analysis of the deposited data

How the results depend on the processing

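Of 160 log2 fold changes of the 10 enzymes under alternatives, 155 kept their direction and 5 turned, and 5 passed the adjusted p of 0.05 by limma. Not every value could turn. The surrogate variable, the replicate block, the trended, robust prior and the filters on low values leave the log2 fold change of any gene as it is. The turned values were, relative to GAPDH, −0.25 for LDHA, −0.46 for PKM and −0.0227 for TPI1, and for PKM −0.32 without ZR751shLucif replicate 2 and −0.18 without ZR751shMLL3 replicate 1 (range without single libraries −0.32 to 0.55). The median of the 10 was 0.48 to 1.01 without single libraries and 0.17 relative to GAPDH. The number called was 0 to 4 without single libraries and 1 (PFKL) with a surrogate variable removed, a step that called 3636 genes and counts no degree of freedom for that variable. The number higher in both ZR751shMLL3 libraries was 5 to 9 without single libraries (24.5% to 41.3% of all genes), 9 with the surrogate variable removed (31.3%), 3 with the GC trend (18.6%) or the GC and length trends (19.1%) removed and 1 relative to GAPDH (1.64%). The number lower was 0 to 1 without single libraries (32.7% to 54.7% of all genes) and 2 relative to GAPDH (61.2%). With the replicate block the median of 0.75 and the 5 of 10 higher cannot change. With it 0 of the 10 were called, while 33 genes were called over the table in place of 1. Deviations of same-numbered RNA-seq libraries correlated at 0.0374 across genes. The labels pair the samples by number only, and this value alone does not settle whether they were made together. Calls over all genes numbered 93 relative to GAPDH, 1269 without ZR751shLucif replicate 2, 2 without ZR751shLucif replicate 1 or ZR751shMLL3 replicate 1, 4 without ZR751shMLL3 replicate 2, 4 with a trended, robust prior and 0 with no filter. The cause was not tested for any of these changes.

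Of 310 values of other named genes, 9 turned and 17 passed the adjusted p of 0.05 by limma, all with the surrogate variable removed, without ZR751shLucif replicate 2 or, for ALDOC, with the replicate block (0.0440). With the surrogate variable removed, HIF1A, NDRG1 and ALDOC had an adjusted p of 0.0134 by limma, as did LDHB and RPE. In that fit 1 to 5 genes were called in each of the other lists, 5 of them among the transcription factors. Calls in the lists moved in 18 of 135 cases, to at most 6. SLC2A8 had −0.0551 with the GC and length trends removed, −0.11 with the GC trend removed and −0.24 to 0.53 without single libraries. PGLS had −0.0606 with the GC trend removed. Without single libraries, MLXIPL ranged from −0.0292 to 0.91, FBP1 from −0.87 to 0.34, PFKM from −0.87 to 0.0719 and VEGFA from −0.37 to 0.47. MLXIPL turned without ZR751shLucif replicate 2, FBP1 and PFKM without ZR751shLucif replicate 1, and VEGFA without ZR751shLucif replicate 1 or ZR751shMLL3 replicate 1 (−0.0037). Without single libraries the difference in isozyme share was, in percentage points, 0.157 to 18.7 for HK2, 1.44 to 11.1 for PFKL, −0.192 to −0.12 for ALDOA, −0.469 to 0.107 for PGAM1, −6.33 to 5.41 for ENO1, −0.0408 to 0.0338 for PKM and −0.778 to 0.138 for LDHA.

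Promoter counts were not compared by numbered pairs. The SP1 difference of 6.5 promoters was 3 at an FDR of 0.001, 4 with 1 start site per gene, 2 for peaks reproducible between replicates, 6 to 7 without single libraries, and 3.5 in the top 5000 or 20000 ranks (0.5 to 6.5 without single libraries). The H3K4me1 difference of −3 was 0 in the top 5000 and 1 in the top 20000 ranks, and −4.5 to −1.5 without single libraries. The ERα difference of −1 was −2 at an FDR of 0.05, 0 at an FDR of 0.001 and in the top 5000 or 20000 ranks, −2.5 in a window of 5000 bp, 1 for reproducible peaks and −2 to 0 without single libraries. Reproducible meant an irreproducible discovery rate threshold of 0.5 for SP1 and 0.7 for ERα, both lenient, and 0.1 for H3K4me1. Reproducible SP1 peaks lay at 7.77% of all promoters in ZR751shLucif, against 15.4% in ZR751shMLL3. Reproducible ERα peaks lay at 1.38% of them in ZR751shLucif, against 7.25% in ZR751shMLL3. For H3K4me1, such peaks lay at 2 enzyme promoters in ZR751shLucif, against 0 in ZR751shMLL3, and at 20.1% and 9.87% of all promoters. Promoters in general thus moved in the same direction as the enzyme counts for SP1, ERα and H3K4me1. FPKM without counts gives no counting error for any gene.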
